A study of Mus musculus with 9 samples.

Results

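Myosin heavy chains are the motor proteins of muscle contraction, and 9 of them were followed through the differentiation of mouse primary myoblasts in culture. They were taken by gene symbol: a probe set of the deposited table had to name the gene alone, and of several such probe sets the one highest on average was used. All 9 were found among 19938 genes with such a probe set, and all 9 were among the 16582 genes that passed a filter on low values. Of these, 7 are sarcomeric heavy chains (Myh1, Myh2, Myh3, Myh4, Myh7, Myh7b and Myh8) and 2 are nonmuscle forms (Myh9 and Myh10).

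The arrays came in 3 groups of 3: cycling myoblasts (0 days), and myotubes after 2 or 5 days in what the sample titles call differentiating medium. All cells were primary cells of wild-type Balb/c mice, from skeletal muscle, hybridised to Affymetrix arrays as biotin-labelled total RNA. The growth protocol lists 1 serum and growth factor medium for every sample, so the medium change of the myotubes is known from the titles alone. The labels do not say whether replicates were separate cultures or animals, so p-values cover the spread between these arrays alone, and that spread may be technical.

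A myosin heavy chain folds into a motor head that binds actin and splits ATP, and a long tail by which chains pair and pack into filaments. Skeletal muscle replaces its heavy chains as it matures: embryonic and perinatal forms come first and adult fast forms later. The nonmuscle forms build the contractile bundles and the division ring of proliferating cells. In the mouse, 5 of the sarcomeric members lie in a row on chromosome 11.

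Levels are RMA values on the log2 scale. A change is a log2 fold change (log2FC), given as deposited and then on a common scale, on which all 9 arrays were quantile-normalized to one distribution. Arrays of a time point had been normalized together and time points apart. The median log2FC of all tested genes therefore moved with the scale: -0.01 (deposited) and 0.09 (common scale) at day 2 against cycling myoblasts, -0.37 and 0.17 at day 5 against cycling myoblasts, and -0.40 and 0.05 at day 5 against day 2. "Rose" and "fell" are used below only for a change of at least 2-fold, with an adjusted p under 0.05, on both scales. The p-values are limma's, adjusted by the Benjamini-Hochberg method over 16582 genes. They are too small to rank anything, because identical replicate values are frequent: the 3 arrays of a time point held the same value, within a tolerance of 1e-06, in 15 of the 27 combinations of member and time point. An array with 35556 probe sets held only 12834 to 17735 distinct values, so a value can also be shared by many probe sets of 1 array.

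At day 2 against cycling myoblasts 6 of 7 sarcomeric members rose, 1 was higher by less than 2-fold, and both nonmuscle members fell. Among all tested genes 6.04% rose and 8.41% fell in that comparison. At day 5 against cycling myoblasts 5 sarcomeric members rose and both nonmuscle members fell, where 4.44% of all tested genes rose and 12.3% fell. Between day 5 and day 2 the sarcomeric members parted: Myh2 and Myh4 rose, Myh7 fell, and the other 6 of the 9 members did not change by 2-fold on both scales. There 0.766% of all tested genes rose and 3.67% fell. As deposited alone, 4 members (Myh3, Myh8, Myh7 and Myh9) were lower by 2-fold, against 15.4% of all tested genes, and with no size threshold the same 4 were lower on both scales, against 40.6%. In every comparison and on either scale the 3 arrays of 1 time point lay entirely above or below the other 3 for all 9 members, but this also held for most of all tested genes. At day 2 against cycling myoblasts their share was 95.8% (deposited values) and 93.8% (common scale), at day 5 against cycling myoblasts 96.5% and 95.1%, and at day 5 against day 2 97.1% and 94.5%. In these bulk samples fewer cells of a type and less RNA per cell cannot be told apart.

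**Figure D1:**
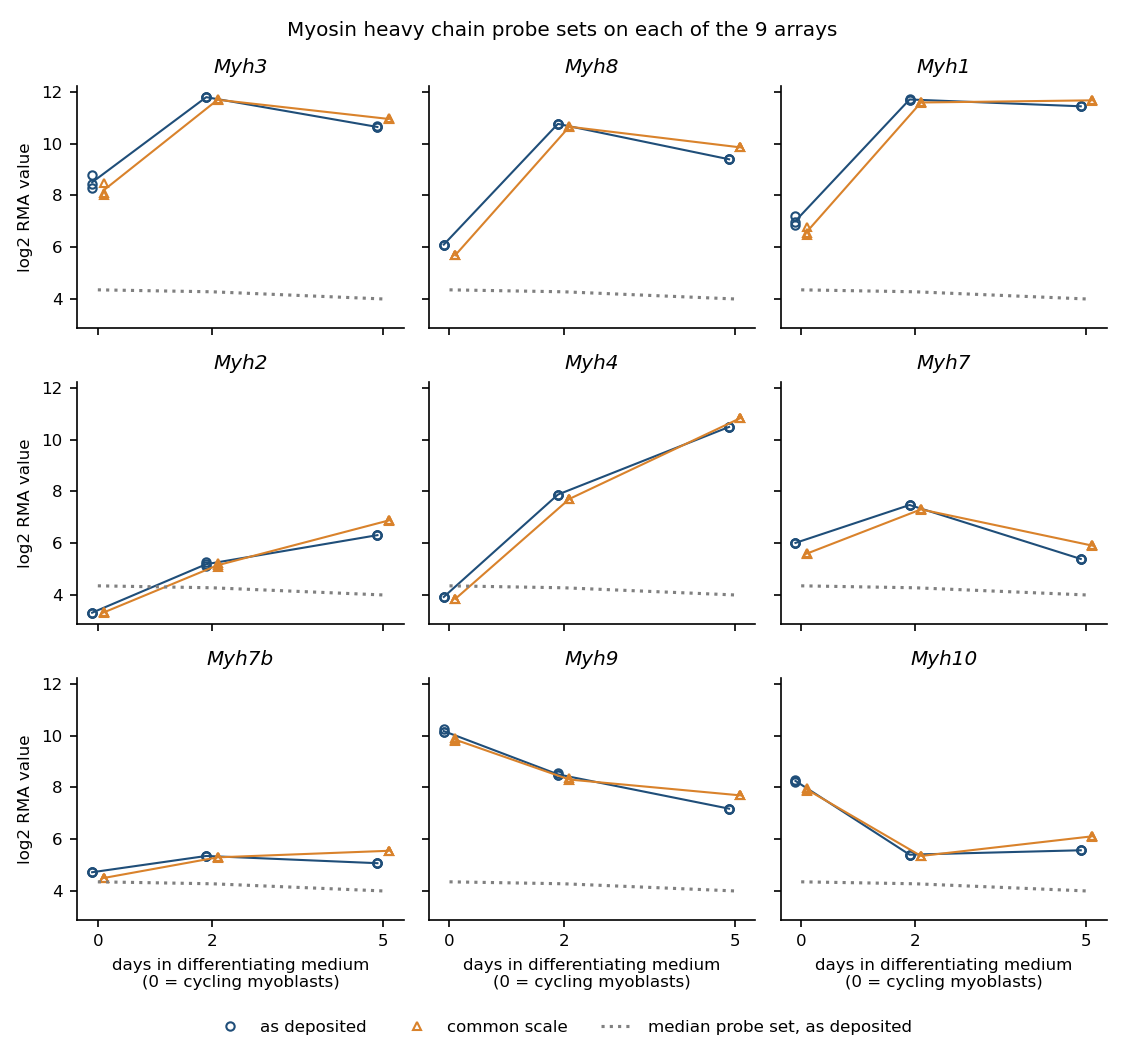
Log2 RMA value of each heavy chain (vertical axis) on each of the 9 arrays against days in differentiating medium (horizontal axis), as deposited (circles) and on the common scale (triangles), with lines through the means and the array median as deposited dotted. Myh3, Myh8 and Myh7 were highest at day 2, Myh2 and Myh4 were highest at day 5, and Myh9 and Myh10 were highest in cycling myoblasts.

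In the RefSeq annotation of GRCm38.p6 the clustered genes stand in the order Myh3, Myh2, Myh1, Myh4, Myh8 and Myh13, with the long noncoding gene Myhas between Myh1 and Myh4. The promoter windows of the 5 members are shown because all 5 rose at day 2 and only some rose again by day 5. Each runs from 250 bases before the annotated start site to 50 bases after it, 5′ to 3′ on the gene's strand. Capitals mark TATA boxes (TATAAA, either strand), MEF2 sites, and a run of 14 bases discussed below.
Myh3, chr11:67078050-67078349, + strand: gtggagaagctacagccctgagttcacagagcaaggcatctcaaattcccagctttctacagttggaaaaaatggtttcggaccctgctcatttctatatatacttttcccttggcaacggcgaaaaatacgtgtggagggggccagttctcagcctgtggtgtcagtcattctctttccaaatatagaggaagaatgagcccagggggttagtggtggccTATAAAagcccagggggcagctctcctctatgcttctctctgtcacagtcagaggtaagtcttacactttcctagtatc
Myh2, chr11:67170777-67171076, + strand: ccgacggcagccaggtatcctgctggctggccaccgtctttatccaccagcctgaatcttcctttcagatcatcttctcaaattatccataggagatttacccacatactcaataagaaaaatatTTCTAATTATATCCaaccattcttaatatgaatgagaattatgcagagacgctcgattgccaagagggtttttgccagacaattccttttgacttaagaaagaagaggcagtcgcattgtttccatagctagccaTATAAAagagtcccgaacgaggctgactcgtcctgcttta
Myh1, chr11:67199852-67200151, + strand: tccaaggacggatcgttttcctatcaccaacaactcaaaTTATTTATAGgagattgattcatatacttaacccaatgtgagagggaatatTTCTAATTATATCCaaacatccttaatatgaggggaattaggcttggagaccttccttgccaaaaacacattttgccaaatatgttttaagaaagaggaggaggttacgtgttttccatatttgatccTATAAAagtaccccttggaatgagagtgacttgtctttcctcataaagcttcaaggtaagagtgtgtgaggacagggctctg
Myh4, chr11:67237562-67237861, + strand: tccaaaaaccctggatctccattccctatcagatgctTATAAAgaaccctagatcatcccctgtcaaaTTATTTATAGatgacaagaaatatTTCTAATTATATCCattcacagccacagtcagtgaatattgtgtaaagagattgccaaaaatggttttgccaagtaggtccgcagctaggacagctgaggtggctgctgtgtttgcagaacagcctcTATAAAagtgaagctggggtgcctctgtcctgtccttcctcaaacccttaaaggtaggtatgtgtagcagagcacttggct
Myh8, chr11:67276874-67277173, + strand: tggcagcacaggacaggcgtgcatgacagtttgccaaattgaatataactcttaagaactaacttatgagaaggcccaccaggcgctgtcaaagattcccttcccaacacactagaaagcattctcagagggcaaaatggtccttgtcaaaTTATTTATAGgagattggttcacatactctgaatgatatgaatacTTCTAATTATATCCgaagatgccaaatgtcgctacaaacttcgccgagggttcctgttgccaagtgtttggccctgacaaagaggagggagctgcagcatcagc

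The run ttctaattatatcc was the longest stretch shared by the windows of Myh1, Myh2, Myh4 and Myh8, and among 32851 mouse promoter windows these 4 alone held it on either strand. The Myh3 window lacked it, but the run had been searched for in the other 4 windows alone. With the Myh3 window added, the longest shared run was 7 bases (tcaaatt), held by 1103 of the 32851 windows. The windows of Myh1, Myh4 and Myh8 held the same MEF2 site, TTATTTATAG, which contains a TATA box match on the opposite strand. A MEF2 site was present in 3.19% of all windows, and MEF2 factors are transcription activators of muscle genes. Myh3, Myh1 and Myh4 had a TATA box beginning 29, 32 and 31 bases before the annotated start, and 13.6% of all windows held a TATA box somewhere on either strand. Searched on both strands over the 9 members, CANNTG (the E-box bound by myogenic bHLH factors) was found in 7 windows against 72.3% of all windows, CATTCC (the M-CAT element) in 4 against 14.7%, and the CArG box in 1, that of Myh4, against 1.63%. Matches of letters describe these windows and were not tested as binding sites.

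The developmental heavy chains Myh3 and Myh8 were highest at day 2. Myh3, the embryonic form and the first made in forming fibres, had 8.29, 8.78 and 8.43 on the arrays of cycling myoblasts, 11.79, 11.80 and 11.79 at day 2, and 10.63, 10.66 and 10.63 at day 5. No array of one time point overlapped with another, and replicate 2 of the cycling myoblasts was the highest of its group. Myh3 rose at day 2 against cycling myoblasts (log2FC 3.30 and 3.51, SE 0.12 and 0.11, n = 3 each; limma adjusted p = 1.07e-07 and 1.43e-08). It rose at day 5 against cycling myoblasts too (log2FC 2.14 and 2.77). Its level was lower at day 5 than at day 2 by 2-fold as deposited alone (log2FC -1.16 and -0.74).

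Myh8, the perinatal form, had 6.09 on all 3 arrays of cycling myoblasts, 10.76 on all 3 at day 2 and 9.39 on all 3 at day 5. On the common scale its means were 5.68 ± 0.014, 10.65 ± 0.010 and 9.85 ± 0.0013 (SD, n = 3 each). The rise at day 2 was 25.5-fold as deposited and 31.4-fold on the common scale (log2FC 4.67 and 4.97), and at day 5 against cycling myoblasts 9.84-fold and 18.0-fold. At day 5 against day 2 its log2FC was -1.37 and -0.80, which like that of Myh3 passed 2-fold as deposited alone.

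The adult fast heavy chains differed in their time course. Myh1, the fast IIX form, had 6.85, 7.19 and 6.97 on the arrays of cycling myoblasts, 11.70, 11.70 and 11.71 at day 2, and 11.44 on all 3 arrays at day 5. The rise at day 2 was 26.0-fold as deposited and 32.1-fold on the common scale (log2FC 4.70 and 5.00), and the log2FC at day 5 against cycling myoblasts was 4.44 and 5.08. At day 5 against day 2 its direction depended on the scale, with a log2FC of -0.26 as deposited (limma adjusted p = 0.017, n = 3 each) and 0.08 on the common scale (limma adjusted p = 0.32, n = 3 each). Myh1 therefore did not change by 2-fold between the myotube time points on either scale.

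Myh4, the fastest form (IIB), had 3.91 on all 3 arrays of cycling myoblasts, 7.87 on all 3 at day 2, and 10.48, 10.48 and 10.50 at day 5. It was the member with the highest log2FC at day 5 against cycling myoblasts (6.575 and 6.997, or 95.4-fold and 128-fold). The value in cycling myoblasts was under the array median, and 22 to 26 probe sets of those arrays held that same value, so the size of both rises from there is not exact. The step from day 2 was measured above the median on both sides, and Myh4 rose 6.12-fold as deposited and 8.73-fold on the common scale at day 5 against day 2 (log2FC 2.61 and 3.13; limma adjusted p = 8.35e-16 and 5.47e-14, n = 3 each).

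Myh2, the IIA form of fatigue-resistant fast fibres, had 3.30 on all 3 arrays of cycling myoblasts, 5.09, 5.17 and 5.27 at day 2, and 6.30 on all 3 at day 5. In cycling myoblasts it lay under the array median, with 32.1% of probe sets below it, and 391 to 402 probe sets of an array shared its value. Its rises against cycling myoblasts (log2FC 1.88 and 1.83 at day 2, 3.00 and 3.56 at day 5) therefore start from a level that these values do not show to lie above background. From day 2 it rose 2.18-fold as deposited and 3.33-fold on the common scale at day 5 (log2FC 1.13 and 1.74), with the day 2 level above the array median. Its value was shared by 1 to 34 probe sets of an array at day 2 and by 17 to 21 at day 5, so the size of that rise is not exact.

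The slow heavy chain Myh7, which is also the beta form of the heart, had 6.002 on all 3 arrays of cycling myoblasts, 7.46, 7.47 and 7.47 at day 2, and 5.38 on all 3 at day 5. It rose 2.75-fold as deposited and 3.26-fold on the common scale at day 2 (log2FC 1.46 and 1.71). It then fell 4.23-fold as deposited and 2.63-fold on the common scale at day 5 against day 2 (log2FC -2.08 and -1.40; limma adjusted p = 2.91e-16 and 1.20e-12, n = 3 each), and was the member that fell in that comparison. Its value was shared by 20 to 31 probe sets of an array in cycling myoblasts and by 19 to 24 at day 5, so the size of both changes is not exact. At day 5 against cycling myoblasts the sign of its log2FC depended on the scale (-0.62 and 0.31). Myh7b, an ancient slow-type myosin whose transcript carries a microRNA, had 4.71 on all 3 arrays of cycling myoblasts, 5.34 on all 3 at day 2 and 5.06 on all 3 at day 5. Its log2FC was 0.64 and 0.80 at day 2 and 0.35 and 1.05 at day 5, both against cycling myoblasts, and -0.28 and 0.26 at day 5 against day 2, so it did not change by 2-fold on both scales in any comparison.

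The genes of 3 related microRNAs lie within the spans of Myh6, Myh7 and Myh7b in that annotation, and miR-208b and miR-499 are known in mice for a part in keeping slow fibres. The mature sequences of the 3 are shown for their near-identical seeds (bases 2 to 8, in capitals), which are the same in miR-208a-3p and miR-208b-3p and share 6 of 7 bases with miR-499-5p.
mmu-miR-208a-3p, chr14:54949072-54949093, - strand: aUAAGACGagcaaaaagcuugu
mmu-miR-208b-3p, chr14:54975710-54975731, - strand: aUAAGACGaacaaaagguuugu
mmu-miR-499-5p, chr2:155622893-155622913, + strand: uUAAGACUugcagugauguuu
Probe sets for the hairpin genes were at the low end of the arrays: Mir499, in Myh7b, had 2.70 on all 3 arrays of cycling myoblasts, 2.92 on all 3 at day 2 and 3.00 on all 3 at day 5, never above the filter. Mir208a, in Myh6, had 1.98 on all 3 arrays of cycling myoblasts, 2.71 on all 3 at day 2 and 2.81, 2.81 and 3.15 at day 5, above the filter on 1 array. Neither was tested, and no probe set named Mir208b alone.

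The nonmuscle heavy chains fell, on different schedules. Myh9, nonmuscle myosin IIA, which drives cell migration and stress fibres, had 10.12, 10.26 and 10.13 on the arrays of cycling myoblasts, 8.47, 8.55 and 8.47 at day 2, and 7.17 on all 3 at day 5. It fell at day 2 (log2FC -1.67 and -1.54) and at day 5 (log2FC -3.00 and -2.16), both against cycling myoblasts, and at day 5 it was lower than at day 2 by 2-fold as deposited alone (log2FC -1.33 and -0.61). A further probe set naming Myh9 had 6.04, 6.17 and 6.17 on the arrays of cycling myoblasts, 4.75 on all 3 at day 2 and 3.70 on all 3 at day 5. It moved the same way, with log2FC -1.38 and -1.02 at day 2, -2.43 and -1.83 at day 5, and -1.05 and -0.81 between day 5 and day 2. The day 5 value was under the array median.

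Myh10, nonmuscle myosin IIB, a slower motor of the cortex and division ring, had 8.25, 8.26 and 8.22 on the arrays of cycling myoblasts, 5.39 on all 3 at day 2 to 2 decimals, and 5.56 on all 3 at day 5. It fell 7.23-fold as deposited and 5.93-fold on the common scale at day 2 (log2FC -2.85 and -2.57; limma adjusted p = 1.95e-14 and 2.62e-12, n = 3 each), and the log2FC at day 5 against cycling myoblasts was -2.68 and -1.81. On an array of day 2, 1 to 71 probe sets held the same value as Myh10, so the size of the fall at day 2 is not exact. Myh10 was higher at day 5 than at day 2, by less than 2-fold (log2FC 0.17 and 0.76). Myh9, in contrast, was lower at day 5 than at day 2 on both scales.

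**Figure D2:**
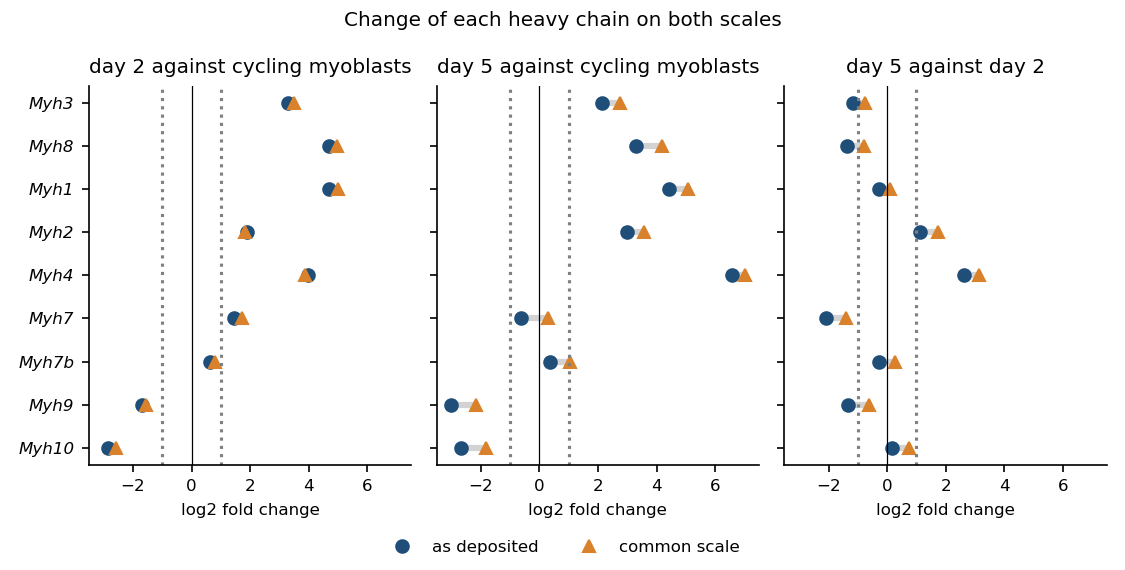
Log2 fold change (horizontal axis) of each heavy chain (rows) in the 3 comparisons, as deposited (circles) and on the common scale (triangles), with dotted lines at 2-fold. Between day 5 and day 2 both marks lie beyond 2-fold upward for Myh2 and Myh4 alone, and downward for Myh7 alone.

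Relative change within an array is less exposed to the separate normalization, since any constant offset of an array cancels. Levels of different probe sets cannot be set against each other, so the change of the log2 difference of a pair of members was compared between time points for 8 pairs chosen by role, in 24 comparisons. At day 5 against day 2 Myh4 gained on Myh3 by 3.77 as deposited and 3.87 on the common scale, a 13.6-fold and 14.6-fold shift, where the SD of the difference over 3 arrays was at most 0.025. Myh2 gained on Myh3 by 2.28 and 2.48, Myh1 by 0.89 and 0.82 and Myh7b by 0.87 and 1.00. The change of Myh8 against Myh3 was -0.22 and -0.06, and the change of Myh7 against it was -0.93 and -0.65. Sizes for Myh2, Myh7 and Myh7b are not exact, because other probe sets shared their values at day 5. Within the fast group Myh4 gained 2.88 and 3.05 on Myh1 in the same interval.

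Changes at day 2 against cycling myoblasts are not exact for pairs with Myh2 or Myh4, whose levels in cycling myoblasts were under the array median and shared by many probe sets. Those of Myh7b and Myh7 were above the median, but 105 to 110 and 20 to 31 probe sets of an array shared them. Changes of their pairs are therefore not exact either. Against Myh3, gains at day 2 over cycling myoblasts were 1.40 and 1.49 for Myh1, 1.38 and 1.46 for Myh8 and 0.67 and 0.36 for Myh4. The change was -1.42 and -1.68 for Myh2, -1.84 and -1.80 for Myh7, and -2.66 and -2.71 for Myh7b. Of the nonmuscle pair, Myh10 changed against Myh9 by -1.18 and -1.02 at day 2 and by 1.499 and 1.37 at day 5 against day 2. Each of the 24 changes had 1 direction on both scales. The two-sided exact permutation test gave p = 0.1 for each (Benjamini-Hochberg adjusted p = 0.1 over the 24), the smallest that 3 against 3 arrays can give, so the test separates none of the pairs from the others.

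**Figure D3:**
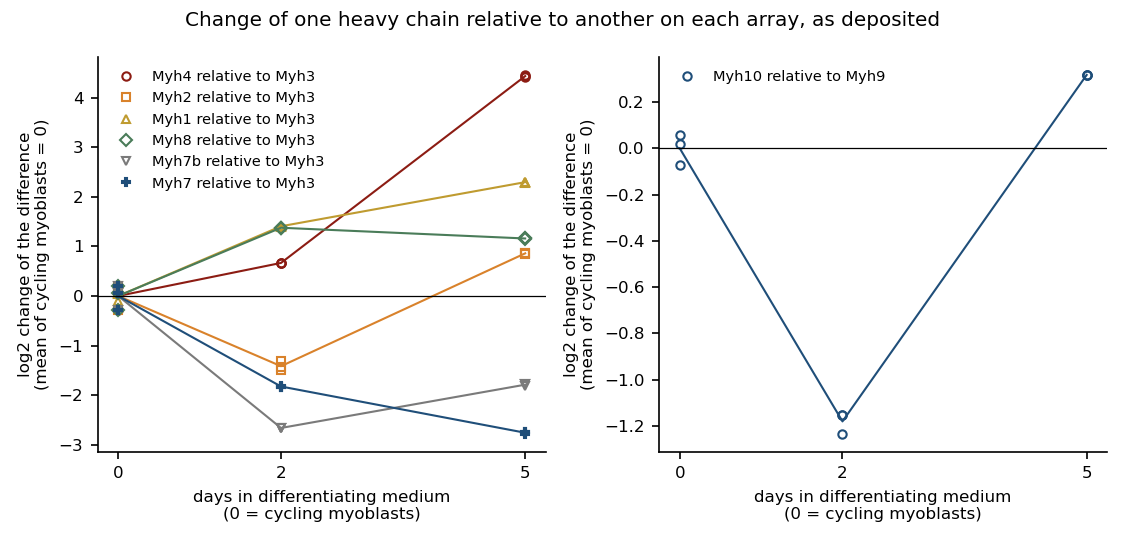
Change of the log2 difference between a pair of heavy chains (vertical axis, mean of cycling myoblasts set to 0) on each of the 9 arrays, as deposited, against days in differentiating medium (horizontal axis). Myh4 gained 3.77 on Myh3 at day 5 against day 2, while its change from cycling myoblasts starts at a value under the array median, as does that of Myh2, and Myh10 fell relative to Myh9 by day 2 and was above its first value by day 5.

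The pattern of each member was also set beside all other tested genes, by the Euclidean distance over the 9 arrays between common-scale values centred on each gene's mean. Arrays of a time point share their normalization, so these distances describe 3 time points rather than 9 independent samples. Closest to Myh3 were dystrophin Dmd (distance 0.385), the small heat shock protein Hspb3 (0.423) and Filip1 (0.476). Closest to Myh8 were caveolin Cav3 (0.404), Hrc (0.706) and Fgf21 (0.870), and to Myh1 the calcium-binding Casq1 (0.333), Fsd2 (0.587) and the fatty acid-binding Fabp3 (0.632). Closest to Myh2 were Ndrg4 (0.225), Rilpl1 (0.239) and Acsl6 (0.279). Myh4 had no gene as near: the mitochondrial creatine kinase Ckmt2 (1.08), Ankrd23 (1.64) and the fatty acid transporter Cd36 (2.13) were the closest.

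For Myh7 the nearest genes were Cpne9 (0.0540), Svbp (0.127) and Gpr63 (0.240), and for Myh7b they were Gsc2 (0.0159), Mfsd4b1 (0.0355) and 4930412O13Rik (0.0537). Small distances are easily reached where changes are small and values are shared by many probe sets, as 105 to 110 probe sets shared the value of Myh7b on an array of cycling myoblasts. Closest to Myh9 were Lrch2 (0.134), Mlkl (0.147) and the actin-nucleating complex subunit Arpc5 (0.152), and to Myh10 the mitosis gene Ckap2l (0.239), the DNA repair gene Fanca (0.265) and the histone gene H2bc3 (0.290). Among the members, Myh8 and Myh1 (1.29) and then Myh9 and Myh10 (1.75) were the closest pairs.

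The sarcomeric heavy chains work with light chains that stiffen the neck of the motor. Of 8 sarcomeric light chain genes and their kinases 6 rose and 0 fell at day 2, and 5 rose and 0 fell at day 5, both against cycling myoblasts (median log2FC 2.25 and 2.32 at day 2, 1.68 and 2.45 at day 5). Among all tested genes 6.04% rose at day 2 and 4.44% at day 5. Named by the size of their change at day 5, Myl2, the slow regulatory light chain, had log2FC 1.80 and 1.75 at day 2 and 3.42 and 3.96 at day 5, from a level under the array median in cycling myoblasts. Myl1, the fast essential chain, had 2.70 and 2.89, then 2.73 and 3.20, and Myl4, the embryonic and atrial chain, 3.01 and 3.11, then 2.62 and 3.04. In the later interval, day 5 against day 2, Myl2 rose (log2FC 1.62 and 2.21) and the kinase gene Mylk4 fell (log2FC -2.74 and -2.00).

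Of 10 measured partners of the thick filament, the bundle that the heavy chains form, 8 rose at day 2 and 7 at day 5 against cycling myoblasts, and 0 fell (median log2FC 2.32 and 2.57 at day 2, 2.53 and 3.27 at day 5). The myosin-binding proteins Mybpc2 (fast form, log2FC 1.56 and 1.53 at day 2, 5.27 and 5.74 at day 5, from under the median) and Mybpc1 (slow form, 4.37 and 4.64, then 4.77 and 5.51) and the M-band protein Myom2 (3.81 and 4.11, then 3.29 and 4.07) had the largest changes at day 5. Mybpc2 was the partner that also rose between day 5 and day 2 (log2FC 3.70 and 4.21), as Myh4 did. Of 10 genes of myosin folding and assembly 6 rose and 1 fell at day 2, and 4 rose and 2 fell at day 5 (median log2FC 1.05 and 1.27, then 0.14 and 1.06). Among all tested genes 6.04% rose and 8.41% fell at day 2, and 4.44% rose and 12.3% fell at day 5. The counts that fell in this list are near those shares. The muscle deaminase-family gene Apobec2 (3.17 and 3.44, then 2.68 and 3.56), the muscle myosin chaperone Unc45b (3.65 and 3.76, then 2.43 and 3.25) and the ubiquitin ligase Trim63 (2.55 and 2.62, then 2.20 and 2.98) were named by size. The general chaperone gene Unc45a (log2FC -1.03 and -0.80 at day 2, -2.32 and -1.42 at day 5) fell at day 5, beside Hsp90aa1 (log2FC -1.02 and -1.02, then -2.72 and -2.12), which fell at both times. Hsp90aa1 also fell at day 5 against day 2 (log2FC -1.69 and -1.10), and 0 of the 10 rose, where 3.67% of all tested genes fell and 0.766% rose. The day 5 arrays differed widely for Hsp90aa1 (SD 0.40 as deposited and 0.39 on the common scale), so the size of its changes at day 5 is not exact.

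Of 14 light chain and regulator genes of the nonmuscle forms 1 rose and 1 fell at day 2, and 1 rose and 3 fell at day 5, against cycling myoblasts (median log2FC -0.10 and 0.08, then -1.04 and -0.31). The counts at day 2 are near the 6.04% and 8.41% of all tested genes that rose and fell. At day 5 those shares were 4.44% and 12.3%. In the later interval, day 5 against day 2, 0 rose and 4 fell (Myl6, Myl6b, Rock1 and Ppp1r12a; median log2FC of the list -1.03 and -0.38), against 3.67% of all tested genes. Myl9, a light chain of smooth muscle and nonmuscle myosin, fell by day 2 (log2FC -4.02 and -3.78) and was lower at day 5 (log2FC -5.36 and -4.72). The kinase Rock1, which activates nonmuscle myosin, fell at day 5 (log2FC -2.60 and -1.74) and not at day 2 (log2FC -0.60 and -0.40). Myl6b, a light chain shared with slow muscle, rose against cycling myoblasts (log2FC 3.12 and 3.34 at day 2, 1.28 and 2.21 at day 5) and fell at day 5 against day 2 (log2FC -1.84 and -1.14).

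**Figure D4:**
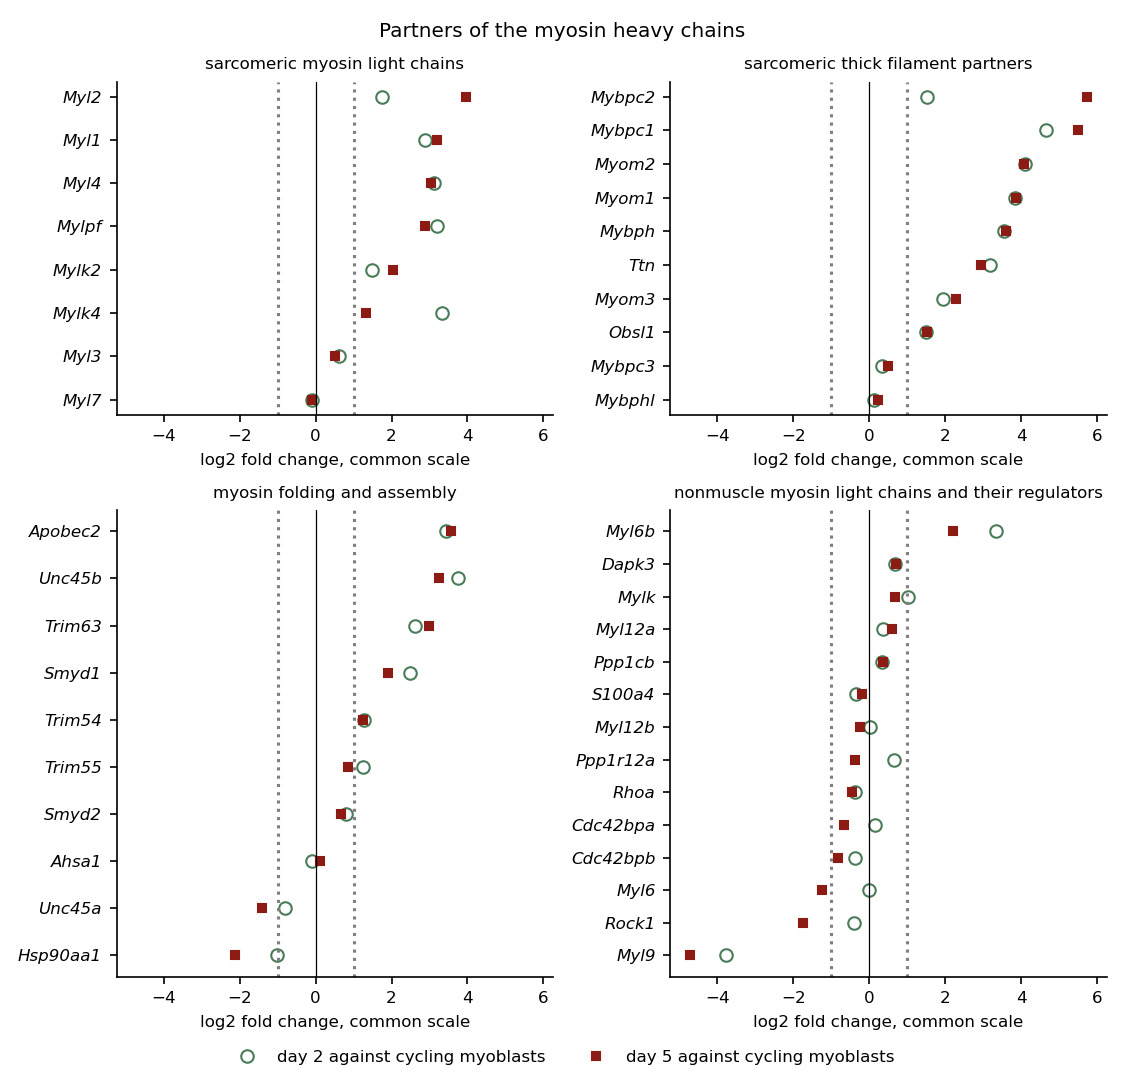
Log2 fold change on the common scale (horizontal axis) of the measured genes of 4 partner lists (rows), at day 2 (open circles) and day 5 (filled squares) against cycling myoblasts, with dotted lines at 2-fold. Most sarcomeric light chain and thick filament genes lie above 2-fold. Genes of the nonmuscle list lie on both sides of no change, from Myl9 at -3.78 and -4.72 to Myl6b at 3.34 and 2.21.

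Other class II heavy chains did not change by 2-fold on both scales. Myh6, the fast heart form, had log2FC 0.49 and 0.58 at day 2 and 0.09 and 0.56 at day 5, and Myh14, the remaining nonmuscle form, had -0.08 and 0.05, then 0.40 and 1.05. Myh13, the last gene of the cluster and an eye-muscle form, had 0.43 and 0.25, then 0.80 and 0.95, and Myh11, of smooth muscle, had -0.30 and -0.23, then -0.44 and -0.10. Myh13 and Myh11 were under the array median on all 9 arrays, and Myh15 was below the filter on all 9 and not tested.

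Markers of the cultured cells and of other cell types were set beside these changes as the sum of their log2 levels over each list, lowest to highest array. All 6 myoblast markers were above the array median on every array, and their sum was lower at each later time, as Myh9 was. Myh10 was also lower at day 2, but at day 5 it was higher than at day 2 (log2FC 0.17 and 0.76). As deposited the sum was 56.8 to 57.3 in cycling myoblasts, 54.5 to 54.6 at day 2 and 48.7 to 48.8 at day 5, and on the common scale 55.3 to 55.5, 53.7 to 53.8 and 51.4 to 51.5. Of the 6, Pax7 and Myf5 fell at day 2, and Pax7, Myf5, Myod1 and Cdh15 fell at day 5, while the muscle filament gene Des rose at both times. The list was split at day 2 (median log2FC -0.30 and -0.23). By less than 2-fold, Myod1 was lower (log2FC -0.96 and -0.93), and Cdh15 (0.36 and 0.46) and Itga7 (0.53 and 0.70) were higher. At day 5 the sign of the Itga7 change depended on the scale (log2FC -0.20 and 0.57).

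For the other lists the direction at day 5 depended on the scale in part. The 7 fibroblast markers summed to 25.8, 26.2 and 25.0 to 25.4 at the 3 times as deposited, and to 24.8 to 24.9, 25.6 and 26.7 to 26.9 on the common scale, with Dcn, Lum and Dpt never above the filter. The 5 smooth muscle markers summed to 29.5 to 29.7, 30.1 to 30.2 and 27.8 as deposited, and to 28.6 to 28.9, 29.6 to 29.7 and 29.6 on the common scale. Both sums were thus lower at day 5 than in cycling myoblasts as deposited, and higher on the common scale. Single markers could keep 1 direction: at day 5 against day 2 Acta2 of smooth muscle (log2FC -1.77 and -1.20) and Pdgfrb of fibroblasts (log2FC -1.42 and -1.23) fell. Acta2 was also lower at day 5 than in cycling myoblasts (log2FC -1.36 and -0.69). The 6 macrophage and leukocyte markers summed to 18.6, 21.0 to 21.3 and 19.3 as deposited, and to 18.6 to 18.7, 20.4 to 20.7 and 19.9 to 20.0 on the common scale. In that list the integrin gene Itgam rose at day 2 (log2FC 1.96 and 1.86), while Adgre1 and Lyz2 were never above the filter. Cd68 was lower at day 2 (log2FC -0.83 and -0.68) and at day 5 (log2FC -1.01 and -0.57), both against cycling myoblasts. Ptprc (log2FC 0.65 and 0.46) and Csf1r (log2FC 0.90 and 0.73) were higher at day 2, by less than 2-fold. In cycling myoblasts 5 of the 6 markers were at or below the filter, among them Itgam (2.73), Ptprc (2.92) and Csf1r (2.95). The changes of these genes therefore start from levels that the values do not show to lie above background.

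The 5 endothelial markers, 0 of which were above the median, summed to 14.9 to 15.1, 16.0 to 16.1 and 16.2 as deposited, and to 15.0 to 15.3, 15.3 to 15.5 and 16.8 on the common scale. The 5 cardiac markers summed to 21.1 to 21.4, 21.3 to 21.4 and 19.7 as deposited, and to 20.5 to 20.6, 20.9 to 21.0 and 20.8 on the common scale. The 4 measured adipocyte markers summed to 13.6 to 13.8, 14.9 and 13.5 to 13.8 as deposited, and to 13.5 to 13.7, 14.4 and 14.1 to 14.5 on the common scale. No tested marker of these 3 lists rose or fell in any comparison. The part of the lower sum of myoblast markers, or of other cell types, in the changes of the heavy chains was not tested. The clustered heavy chains are close in sequence, and cross-hybridisation between their probes was not tested.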

How the data were processed

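Log2 expression values for 35556 probe sets on 9 Affymetrix arrays were used, 3 per time point, and all 9 columns were used. Per the submitters' processing notes and the series' design text, the deposited log2 values came from RMA run for each replicate set, and no software version is given in the sources used here. Sorted values differed between arrays by at most 0.0251 (mean absolute difference) within a time point and by 0.188 or more across time points, so normalization set and time cannot be told apart.

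By the platform annotation 21789 probe sets had 1 gene symbol, 1621 had several and 12146 had none. A gene was tested if its probe set with the highest mean lay above percentile 30 of the array for 3 or more arrays. One linear model with a mean per time point was fitted to 16582 genes with limma 3.58.1 in R 4.3.3, as deposited and after quantile normalization over the 9 arrays, with Benjamini-Hochberg adjustment, and was tested on simulated data. The simulated data held no identical replicate values, so that test does not cover the identical values that are frequent here. Changes of pairs of members used exact permutation tests (scipy 1.17.1). The number of arrays limits precision, and no measure of background was used. The members and lists were chosen with earlier results of these data known. Of each partner list, the 3 genes with the largest common-scale log2FC at day 5 against cycling myoblasts were named, for each member the 3 genes nearest in pattern, and all class II heavy chains. Mylk4, Unc45a, Hsp90aa1, Myl6, Ppp1r12a and the markers were named after their values were seen. Promoter and microRNA sequences and gene order are from RefSeq (GRCm38.p6), and all 9 members matched. Deviations of same-numbered arrays correlated at -0.0382 to 0.106 in 9 pairs, so no pairing by replicate number was seen. That check cannot exclude a pairing, because 47.9% to 60.2% of probe sets held the same value on all 3 arrays of a time point. Alternatives tried were other scalings, no filter, the mean of all probe sets of a gene, trended and robust variances, fits of 2 time points, a replicate block and leaving out each array.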

Additional observations from a re-analysis of the deposited data

How the results depend on the processing

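Of the 6 counts of members that rose or fell, 5 stayed within 1.5 times their value under every alternative run. The count that fell between day 5 and day 2 was 1 (Myh7), and became 4 as deposited alone, 3 with each array centred on its median and 4 with no size threshold on both scales. Leaving out each array in turn left the counts at 6 up and 2 down at day 2, 5 up and 2 down at day 5, and 2 up and 1 down between them (lowest and highest equal), and moved no member's log2FC by more than 0.139. Signs turned at day 5 against cycling myoblasts for Myh7 (0.31 on the common scale, against -0.62), and at day 5 against day 2 for Myh1 (0.0803 on the common scale and 0.0147 with arrays centred on the median, against -0.26) and Myh7b (0.26 on the common scale, against -0.28). The cause was not tested. With a replicate block the counts were again 6 and 2, 5 and 2, and 2 and 1, and the block changed no call. Relative changes of pairs kept their direction under every alternative run. Low signal limits Myh2 and Myh4 in cycling myoblasts and the microRNA probe sets throughout.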

Other observations

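Genes known to steer the choice of heavy chain were listed as well. Of 20 measured, 10 rose and 1 fell at day 2, and 6 rose and 2 fell at day 5, both against cycling myoblasts (median log2FC of the list 0.93 and 1.02, then 0.38 and 1.24). Among all tested genes 6.04% rose and 8.41% fell at day 2, and 4.44% rose and 12.3% fell at day 5. The counts that fell are near those shares. Mef2c, a MEF2 factor, had log2FC 3.602 and 3.89 at day 2 and 3.32 and 4.04 at day 5. Tbx15, a T-box factor of fast fibres, had 2.84 and 3.09, then 2.73 and 3.5996, and the thyroid hormone receptor gene Thra 1.58 and 1.75, then 1.74 and 2.60. Between day 5 and day 2, 0 of the 20 rose and 1 fell, against 0.766% and 3.67% of all tested genes, so the count is near the background. The 1 was Prox1 (log2FC -1.47 and -1.25), a factor of slow fibres in mice, named after its value was seen, and its day 5 level of 3.75 was under the array median of 3.99.

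Partners of fast and slow fibres both rose in most cases. Of 10 fast fibre genes 10 rose at day 2 and 9 at day 5 against cycling myoblasts (median log2FC 2.90 and 3.09, then 3.21 and 3.85), with Mybpc2, Casq1 (log2FC 4.87 and 5.18, then 4.67 and 5.34) and Tnnc2 (4.16 and 4.45, then 3.90 and 4.62) the largest at day 5. Of 10 slow fibre genes 7 rose and 1 fell at each time (median log2FC 2.07 and 2.16, then 1.49 and 2.23), with Mybpc1, Myl2 and Casq2 (3.73 and 3.98, then 2.26 and 3.03) the largest. Among all tested genes 6.04% rose and 8.41% fell at day 2, and 4.44% rose and 12.3% fell at day 5. The 1 slow fibre gene that fell is near those shares. Between day 5 and day 2 the slow list had 1 rise and 1 fall and the fast list 1 rise, where 0.766% of all tested genes rose and 3.67% fell. A difference between the lists was not tested.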
